A study of Mus musculus with 15 samples.

Results

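The genes of the mitochondrial ribosomal proteins were followed in mouse liver through 127 Affymetrix probe sets of 74 genes, out of 22626 probe sets tested on each array, a probe set being a group of short probes against 1 transcript. Members were all probe sets whose single annotated symbol is Mrpl or Mrps followed by a number. Of the 127 probe sets, 88 carried an Mrpl symbol and 39 an Mrps symbol, and 3 further probe sets that shared one of these symbols with another gene were not used. The mice were adult males of 3 months, by their labels, with 3 biological replicates and 1 array per mouse in each of 5 groups. Z4 mice carried a human alpha1-antitrypsin Z transgene under an inducible, hepatocyte-specific switch and received no doxycycline, so that the mutant protein was expressed. Z1 mice carried the same transgene and drank doxycycline at 40 µg per mL from conception, which kept it off. M4 mice expressed the wild type M form without doxycycline, and M1 mice carried the M transgene with it shut off by the same doxycycline treatment. WT mice were nontransgenic littermates without doxycycline. Expression of either transgene and absence of the drug therefore cannot be told apart in Z4 against Z1 or in M4 against M1.

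The mitochondrial ribosome translates the few messenger RNAs that mitochondrial DNA encodes, all of them for subunits of the respiratory chain and ATP synthase. Its ribosomal RNAs come from the mitochondrial genome, whereas its proteins are encoded in the nucleus and imported. Proteins named Mrpl belong to the large subunit, which forms peptide bonds, and proteins named Mrps belong to the small subunit, which reads the message, apart from Mrps18a and Mrps30, which sit in the large subunit, and Mrps36, which is now assigned to the 2-oxoglutarate dehydrogenase complex. Some members descend from bacterial ribosomal proteins and others exist only in mitochondria. Doxycycline is a tetracycline, a class of antibiotic that binds bacterial ribosomes and is known to inhibit mitochondrial translation as well.

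The promoters of 4 members called in both lines are shown, and no result below rests on them. Mrpl12 and Mrps18c were lower in both transgene-expressing groups than in their doxycycline-treated counterparts. Mrpl9 and Mrps23 were higher, Mrps23 by 1 of its 2 probe sets. Each window runs from 250 bases before to 30 bases after the annotated start, on the plus strand of the mouse genome build GRCm38.p6, from RefSeq. Capitals mark matches, on either strand, to the ETS core CCGGAAG, the NRF1 half-site TGCGCA or the YY1 site AAGATGGC, letters that are known from promoters of nuclear genes for mitochondrial proteins.
Mrpl12: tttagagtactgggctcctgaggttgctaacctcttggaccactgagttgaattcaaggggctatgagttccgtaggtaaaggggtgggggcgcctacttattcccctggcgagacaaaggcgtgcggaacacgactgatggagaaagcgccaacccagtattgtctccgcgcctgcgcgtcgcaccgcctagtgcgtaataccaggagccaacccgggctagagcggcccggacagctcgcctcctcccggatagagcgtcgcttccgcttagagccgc
Mrps18c: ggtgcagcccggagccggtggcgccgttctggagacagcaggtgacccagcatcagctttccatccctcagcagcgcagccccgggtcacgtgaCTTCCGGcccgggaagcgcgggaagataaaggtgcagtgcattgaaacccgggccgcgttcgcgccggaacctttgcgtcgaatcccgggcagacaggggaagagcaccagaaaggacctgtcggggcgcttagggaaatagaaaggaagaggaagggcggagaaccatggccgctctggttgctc
Mrpl9: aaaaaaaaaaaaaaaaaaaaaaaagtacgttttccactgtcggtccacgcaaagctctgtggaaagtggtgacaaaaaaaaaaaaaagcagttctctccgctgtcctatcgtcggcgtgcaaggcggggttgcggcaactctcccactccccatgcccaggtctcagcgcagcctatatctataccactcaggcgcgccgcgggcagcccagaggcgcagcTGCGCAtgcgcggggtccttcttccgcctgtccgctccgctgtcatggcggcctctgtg
Mrps23: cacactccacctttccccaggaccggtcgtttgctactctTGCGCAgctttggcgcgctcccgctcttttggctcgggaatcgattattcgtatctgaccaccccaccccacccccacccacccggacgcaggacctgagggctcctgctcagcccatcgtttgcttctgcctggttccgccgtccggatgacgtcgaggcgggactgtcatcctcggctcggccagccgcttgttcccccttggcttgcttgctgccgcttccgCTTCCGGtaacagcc
Mrpl12 lies at chr11:120484387-120484666 and held none of these letters in this window. Mrps18c lies at chr5:100798509-100798788 and held an ETS core 156 bases before the start. Mrpl9 lies at chr3:94443086-94443365 and held an NRF1 half-site 29 bases before the start. Mrps23 lies at chr11:88204138-88204417 and held an NRF1 half-site 210 bases before the start and an ETS core 15 bases after it. Of the 74 member genes, 65 had a promoter in the RefSeq table. Over 300 bases, up to 50 after the start, the ETS core was present in 24 of the 65 (36.9%), against 12.9% of 17492 protein-coding genes. The NRF1 half-site was present in 21 (32.3%), against 1924 of the 17492 protein-coding genes, and the YY1 site in 11 (16.9%), against 3.57%. The ETS core and the YY1 site can share the letters AAG where they abut, and a match describes the sequence only.

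Some facts of the arrays bear on every comparison. The arrays labelled M4 1 and M4 2 gave female-type sex-linked signals, with 1149.2 and 226.0 for the X-inactivation transcript Xist, against at most 74.3 on the 12 arrays of the other groups, and 0.4 and 1.3 for the Y-linked Eif2s3y, against at least 105.3. M4 3 was at 32.6 for Xist and at 42.1 for Eif2s3y. Results on M4 are therefore given also without M4 1 and M4 2, where the lone remaining array is assumed to vary like the other groups. Replicate M4 arrays also correlated least with each other (0.944 to 0.972, against 0.968 to 0.986 within the other groups), and the median SD of the members on the log2 scale was 0.25 in M4, against 0.12 to 0.17 in the others. Medians of the added poly-A control signals were 1.8 to 3.6 on the Z4 and M4 arrays, against 33.8 to 52.1 on the Z1, M1 and WT arrays, and the 18S ribosomal RNA signal at its 5′ end was 1830 to 2681, against 75 to 568. Hybridization control medians were 168.8 to 240.2 on the Z4 and M4 arrays, against 302.1 to 668.5 on the Z1, M1 and WT arrays. The ratio of the 3′ to the 5′ signal of actin, a measure of RNA quality, was 1.47 to 1.73 in Z4 against 1.7996 to 2.06 in Z1, and 1.29 to 1.61 in M4 against 1.66 to 2.01 in M1, with 2.34 to 2.46 in WT. These signals moved with the groups, and their part in the results below was not tested. The poly-A, 18S and hybridization signals split without overlap into the Z4 and M4 arrays against all others. What these signals reflect cannot be told apart from transgene expression in Z4 against Z1, in M4 against M1 or in either against WT. All 8 hepatocyte markers measured were above 16 in every group, with a summed signal of 50080 to 59895 on the Z4 and M4 arrays, 57157 to 69227 on the Z1 and M1 arrays and 83588 to 103430 on the WT arrays. The summed signal of 6 lymphocyte markers was 149.1 to 222.7 on the Z4 and M4 arrays, against 37.6 to 88.7 on the Z1 and M1 arrays. Of these 6, 5 had a mean under 16 in Z1 and all 6 in M1. Their summed signal was 130.8 to 139.0 on the WT arrays. That of 6 endothelial markers was 849.6 to 922.2 in Z4 against 588.8 to 762.4 in Z1, and 923.5 to 1375.9 in M4 against 651.2 to 721.9 in M1. That of 8 stellate cell and fibroblast markers was 1936.8 to 2058.3 on the Z4 arrays, against 1086.3 to 1415.9 on the Z1 arrays. In the M line it overlapped, at 1353.9 to 2140.1 in M4 and 1428.1 to 1709.3 in M1. For 9 Kupffer cell and macrophage markers the summed signal was 2849.1 to 3499.2 on the M4 arrays, against 1762.5 to 1859.9 on the M1 arrays. In the Z line it overlapped, at 1428.8 to 1838.8 in Z4 and 1366.9 to 2171.6 in Z1. The part of these cells in the results was not tested.

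The median member changed little with transgene expression, on arrays whose overall median was higher. The median member signal was 199.7 ± 13.9 on the Z4 arrays, against 196.3 ± 3.9 on the Z1 arrays, and 220.9 ± 24.4 on the M4 arrays, against 205.1 ± 11.6 on the M1 arrays and 213.8 ± 5.8 on the WT arrays (SD, n = 3 each). Over all probe sets the median log2 change was 0.21 in Z4 minus Z1 and 0.23 in M4 minus M1, on log2(signal + 16), a constant that understates the changes of dim probe sets. The members' median was 0.00 in Z4 minus Z1, where 40 of 127 lay above the median of all probe sets. In M4 minus M1 it was 0.07, and 51 of 127 lay above that of all probe sets. Member changes below are on the deposited scale, so a member with no change stood about 0.2 log2 units below the array-wide median.

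**Figure D1:**
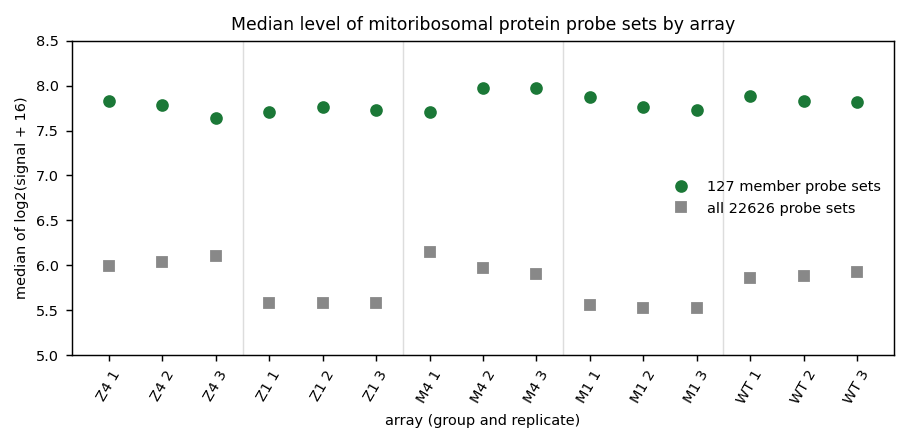
Median of log2(signal + 16) on each of the 15 arrays, for the 127 member probe sets (circles) and for all 22626 probe sets (squares). The member medians lie between 7.65 and 7.97 on every array, while the medians of all probe sets are 5.90 to 6.15 on the Z4 and M4 arrays, against 5.53 to 5.58 on the Z1 and M1 arrays and 5.86 to 5.93 on the WT arrays.

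Within this flat median, single members moved in both directions. In Z4 minus Z1, limma called 20 members higher and 17 lower at an adjusted p under 0.05, a call rule under which 27.9% of all probe sets were higher and 8.14% lower. In M4 minus M1, 27 members were called higher and 15 lower, where 33.2% of all probe sets were higher and 13.4% lower. The split of members depended on the scaling. After quantile normalization, which removes the array-wide shift, 10 members were higher and 25 lower in Z4 minus Z1 (13.2% and 12.6% of all probe sets), and 18 were higher and 16 lower in M4 minus M1 (19.4% and 18.1%). Without M4 1 and M4 2, the M4 minus M1 counts were 28 higher and 7 lower (22.3% and 11.8% of all probe sets), and 25 of the 42 members called with all arrays were called again. Leaving out a single array also moved the counts of lower members: to 9 without Z4 3 and 10 without Z1 1 in Z4 minus Z1, and to 8 without M1 3 in M4 minus M1. The 5 groups share 1 estimate of the spread. Leaving out M4 1 therefore also moved the Z4 minus Z1 counts, to 23 members higher and 24 lower. Over all 22626 probe sets, 6835 were then higher and 2249 lower. The p-values measure the spread between the mice of these groups, 3 a group, and in whole liver a lower signal can come from less RNA per cell or from fewer cells of a type, which cannot be told apart.

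Both lines were compared member by member, with no arrays in common between the 2 comparisons. The calls of both rest on the shared estimate of the spread, so they are not independent of each other. Of the 127 members, 14 of 11 genes were called higher in both, where 22.6% of all probe sets were, and 9 of 9 genes were called lower in both, where 5.33% were. No member was called in opposite directions. The members higher in both were of Mrpl2, Mrpl9, Mrpl11, Mrpl14, Mrpl17, Mrpl21, Mrpl28, Mrpl51, Mrpl57, Mrps9 and Mrps23. Those lower in both were of Mrpl12, Mrpl18, Mrpl33, Mrpl39, Mrpl41, Mrps6, Mrps18c, Mrps24 and Mrps34. Without M4 1 and M4 2, 9 of the 14 and 4 of the 9 kept their M-line call. The calls that ended were those of Mrpl21, Mrpl51, Mrpl57 and both probe sets of Mrps9 among the rises, and of Mrpl33, Mrpl41, Mrps6, Mrps24 and Mrps34 among the falls, with no sign turned.

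**Figure D2:**
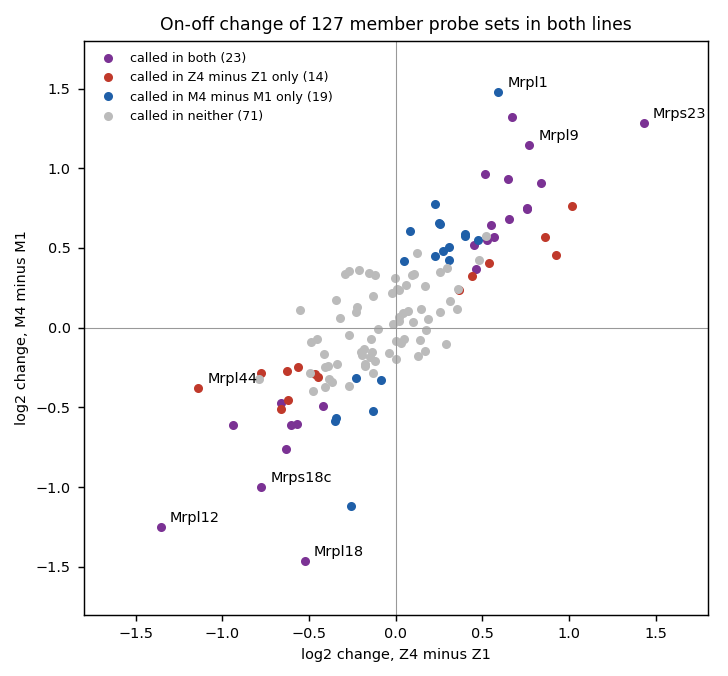
Log2 change of each of the 127 member probe sets in Z4 minus Z1 (horizontal) and in M4 minus M1 (vertical), coloured by where limma called it. The 23 called in both lie in the upper right (14) and lower left (9), with Mrps23 at 1.43 and 1.28 and Mrpl12 at -1.35 and -1.25.

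The large subunit held 90 of the probe sets, from 49 genes. In Z4 minus Z1, 15 of them were higher and 11 lower, where 27.9% of all probe sets were higher and 8.14% lower. In M4 minus M1, 20 were higher and 9 lower, where 33.2% of all probe sets were higher and 13.4% lower. The stalk, which recruits translation factors, is built from Mrpl10, Mrpl11 and Mrpl12. Mrpl12, whose human counterpart also binds mitochondrial RNA polymerase, gave 453.7, 417.7 and 373.1 on the Z4 arrays, against 981.7, 1077.6 and 1199.1 on the Z1 arrays. On the M4 arrays its signal was 363.8, 578.5 and 540.0, against 1143.2, 1378.6 and 1029.9 on the M1 arrays. WT arrays gave 1104.6, 730.6 and 683.3. Every array of the transgene-expressing groups lay below every array of the other 3 groups. The log2 change of Mrpl12 was -1.35 ± 0.20 (SE) in Z4 minus Z1 (limma adjusted p = 0.000254) and -1.25 ± 0.20 in M4 minus M1 (adjusted p = 0.000263), or -1.10 without M4 1 and M4 2 (adjusted p = 0.00687). Mrpl10, at the base of the stalk, went the other way in the M line, with 449.7 ± 43.9 in M4 against 317.3 ± 9.6 in M1 (log2 change 0.48 ± 0.12, limma adjusted p = 0.00428). In the Z line it was at 399.7 ± 24.1 in Z4 and 328.5 ± 29.6 in Z1, which did not pass the test (log2 change 0.27, limma adjusted p = 0.0835). Mrpl11, also at the stalk base, had 4 probe sets. One of them, 1437839_x_at, was at 119.5 ± 10.0 in Z4 against 64.2 ± 4.9 in Z1, and at 128.8 ± 9.5 in M4 against 70.8 ± 10.1 in M1 (log2 changes 0.76 and 0.74, limma adjusted p = 0.000438 and 0.000302). The other 3 probe sets of Mrpl11 were between -0.19 and -0.01 in both comparisons and were not called. The x_at suffix marks probes that can bind other transcripts.

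Mrpl18, a central protuberance protein, had the largest fall of the M line and was also called lower in the Z line. Its signal was 258.7, 293.1 and 290.3 on the Z4 arrays, against 408.5, 454.6 and 372.1 on the Z1 arrays. The M4 arrays gave 207.0, 119.8 and 128.3, against 456.4, 459.4 and 393.4 on the M1 arrays, and the WT arrays gave 393.0, 372.4 and 317.2. All M4 arrays were below all Z4 arrays, and all Z4 arrays were below the 9 arrays of the other groups. The log2 change was -0.53 ± 0.17 in Z4 minus Z1 (limma adjusted p = 0.0294) and -1.47 ± 0.17 in M4 minus M1 (adjusted p = 2.59e-05), or -1.65 without M4 1 and M4 2 (adjusted p = 7.07e-05). The other central protuberance probe sets, 9 of 10, had no call in either comparison. At the exit tunnel, where the new protein leaves the ribosome, 12 probe sets were measured. Of these, 1 was higher and 3 lower in Z4 minus Z1 (27.9% and 8.14% of all probe sets). In M4 minus M1, 3 were higher and 2 lower (33.2% and 13.4% of all probe sets).

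Mrpl44, a mitochondria-specific protein with an RNase III-like fold, fell in the Z line by the probe set 1426651_at, which gave 46.3, 44.1 and 28.8 on the Z4 arrays, against 93.2, 112.0 and 112.2 on the Z1 arrays. M4 arrays were at 79.8, 82.5 and 57.8, M1 arrays at 83.8, 101.8 and 114.5, and WT arrays at 88.0, 80.1 and 77.1. Z4 arrays were thus the lowest of all 15. The log2 change was -1.14 ± 0.16 in Z4 minus Z1 (limma adjusted p = 0.000181) and -0.38 ± 0.16 in M4 minus M1, which did not pass (adjusted p = 0.0706) but did without M4 1 and M4 2 (-0.64, adjusted p = 0.0379). Another probe set of the same gene, 1452144_a_at, was at 418.2 ± 66.1 in M4 against 258.4 ± 9.9 in M1 and was called higher (log2 change 0.65, limma adjusted p = 0.0012), while its change of 0.26 in Z4 minus Z1 did not pass (adjusted p = 0.146).

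Mrpl39 and Mrpl41, both mitochondria-specific, each had a probe set that was called lower in both lines. Mrpl39, the brightest member by its probe set 1448909_a_at, was at 743.5 ± 106.3 in Z4 against 1154.2 ± 59.0 in Z1, and at 677.0 ± 95.6 in M4 against 1150.4 ± 27.9 in M1. Its log2 changes were -0.63 and -0.76 (limma adjusted p = 0.00328 and 0.000633), and WT livers were at 1167.5 ± 121.7. The Mrpl41 probe set 1428588_a_at gave 223.2 ± 24.1 in Z4 against 346.6 ± 35.4 in Z1 (log2 change -0.60, limma adjusted p = 0.00492), and 240.8 ± 14.7 in M4 against 376.1 ± 14.95 in M1 (log2 change -0.61, adjusted p = 0.00316). That M-line call ended without M4 1 and M4 2 (log2 change -0.56). Another probe set of Mrpl41, 1428589_at, changed by 0.41 in M4 minus M1, which did not pass (limma adjusted p = 0.0523). It was called higher without M4 1 (0.49, limma adjusted p = 0.0382) and was at 0.66 without M4 1 and M4 2.

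Among the large subunit members that rose in both lines, Mrpl9, a bacterial-type protein, was called by both of its probe sets. By 1430976_a_at it gave 176.4, 161.1 and 150.0 on the Z4 arrays, against 61.2, 96.5 and 114.9 on the Z1 arrays. M4 arrays gave 192.6, 185.4 and 201.1, against 75.8, 77.6 and 82.6 on the M1 arrays, and WT arrays gave 119.4, 80.0 and 104.6. All 6 arrays of the expressing groups were above all 9 others. The log2 changes were 0.77 ± 0.18 (limma adjusted p = 0.00415) and 1.14 ± 0.18 (adjusted p = 0.00018), or 1.20 in the M line without M4 1 and M4 2 (adjusted p = 0.00484). Mrpl28, also of bacterial type, rose by 2 of its probe sets, both of the x_at kind, with 392.6 ± 29.3 in Z4 against 242.8 ± 43.4 in Z1 and 510.9 ± 107.9 in M4 against 197.6 ± 62.1 in M1 by 1456313_x_at (log2 changes 0.67 and 1.32, limma adjusted p = 0.0216 and 0.000189). Mrpl14, which lies at the interface between the subunits, was at 542.1 ± 78.5 in Z4 against 364.6 ± 55.4 in Z1 and at 641.1 ± 62.6 in M4 against 403.7 ± 18.5 in M1 (log2 changes 0.55 and 0.64, limma adjusted p = 0.00675 and 0.00184). Mrpl1, of the mobile arm through which spent transfer RNAs leave, had its largest change in the M line. By 1423351_at it gave 92.2, 49.5 and 34.4 on the M4 arrays, against 19.0, 6.4 and 5.1 on the M1 arrays, and 61.9, 66.7 and 71.9 on the WT arrays. M1 was the low group, near the constant of 16, and the log2 change of 1.48 ± 0.25 (limma adjusted p = 0.000378) was 0.98 without M4 1 and M4 2 (adjusted p = 0.0168). In the Z line the same probe set was at 96.6 ± 18.5 in Z4 and 58.4 ± 9.5 in Z1, which did not pass (log2 change 0.59, limma adjusted p = 0.0829).

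Further large subunit members fell or rose in one line only by the call, a difference between lines that is taken up below. Mrpl50, a mitochondria-specific protein, was at 55.6 ± 24.7 in M4 against 137.1 ± 40.7 in M1 by 1451266_at (log2 change -1.12, limma adjusted p = 0.00185, or -1.28 without M4 1 and M4 2), and at 100.9 ± 20.3 in Z4 against 123.5 ± 24.2 in Z1 (log2 change -0.26, adjusted p = 0.434). By this probe set Z1 and M1 were called higher than WT (0.78 and 0.90, limma adjusted p = 0.0321 and 0.016), while Z4 and M4 had no call. The Z1 call ended without 5 single arrays in turn and the M1 call without M1 3. The other Mrpl50 probe set, 1424164_at, was called lower than WT in M4 (-0.62, limma adjusted p = 0.00806). Mrps30, a large subunit protein despite its name, was at 243.9 ± 18.5 in M4 against 136.1 ± 19.3 in M1 (log2 change 0.78, limma adjusted p = 0.000556, or 0.76 without M4 1 and M4 2), and at 171.1 ± 22.8 in Z4 against 143.4 ± 8.3 in Z1 (log2 change 0.22, adjusted p = 0.234). Dimmer calls depended on the processing. The Z-line rises of Mrpl21 by 1456275_at (log2 change 1.02) and of Mrpl57 by 1460225_at (0.76) ended after quantile normalization and without single arrays of Z4 or Z1. The Z-line fall of Mrpl52 by 1415761_at (-0.66) ended without any 1 of 5 of the 6 arrays compared.

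**Figure D3:**
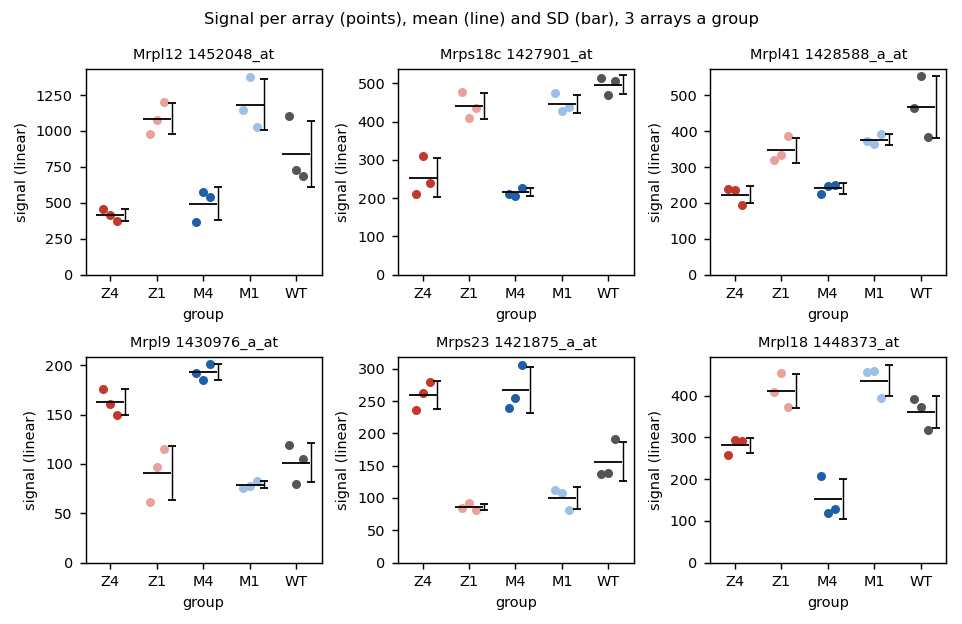
Linear signal on each array (points) of 6 member probe sets, with the group mean (line) and SD (bar), 3 arrays a group. Mrpl12, Mrps18c and Mrpl41 are lower in Z4 and M4 than in Z1, M1 and WT, Mrpl9 and Mrps23 are higher, and Mrpl18 is at 151.7 in M4, against 280.7 in Z4.

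The small subunit held 36 probe sets from 24 genes. In Z4 minus Z1, 5 were higher and 6 lower (27.9% and 8.14% of all probe sets). In M4 minus M1, 7 were higher and 6 lower (33.2% and 13.4% of all probe sets). Mrps23, a mitochondria-specific protein, had the largest rise of the Z line. By 1421875_a_at it gave 236.7, 262.4 and 279.7 on the Z4 arrays, against 85.1, 91.5 and 81.7 on the Z1 arrays. M4 arrays gave 238.9, 254.9 and 306.7, against 113.1, 107.3 and 81.3 on the M1 arrays, and WT arrays gave 137.9, 139.1 and 191.2. By this probe set the 5 groups stood in 3 tiers that did not overlap, with Z4 and M4 above WT, and Z1 and M1 below it. The log2 change was 1.43 ± 0.15 in Z4 minus Z1 (limma adjusted p = 3.13e-05) and 1.28 ± 0.15 in M4 minus M1 (adjusted p = 2.97e-05), or 1.48 without M4 1 and M4 2 (adjusted p = 0.000395). Both calls were kept in every alternative run. The other Mrps23 probe set, 1421874_a_at, did not show these tiers. By it Z1 and M1 were called higher than WT (log2 changes 0.69 and 0.89, limma adjusted p = 0.0284 and 0.00745). The Z1 call ended without 5 single arrays in turn.

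The 3 paralogs that descend from the bacterial protein S18 did not move together. Mrps18c, the paralog that holds the bacterial position in the small subunit, gave 211.0, 311.3 and 239.2 on the Z4 arrays, against 476.6, 410.7 and 436.6 on the Z1 arrays. M4 arrays gave 211.5, 206.4 and 226.8, against 474.0, 426.9 and 438.3 on the M1 arrays, and WT arrays gave 515.3, 469.1 and 505.5. The expressing groups lay below all 9 other arrays. Log2 changes were -0.78 ± 0.14 (limma adjusted p = 0.000688) and -1.002 ± 0.14 (adjusted p = 6.55e-05), or -0.93 in the M line without M4 1 and M4 2 (adjusted p = 0.00382). Mrps18b, also of the small subunit, was at 367.3 ± 31.2 in Z4 and 282.8 ± 23.4 in Z1, and at 458.1 ± 171.6 in M4 and 367.6 ± 19.6 in M1, with no call (log2 changes 0.36 and 0.25). In M4 minus M1 it was called higher without M4 1 (log2 change 0.48, limma adjusted p = 0.0393) and without M4 1 and M4 2 (0.79, adjusted p = 0.00553). Mrps18a, the paralog of the large subunit, was at 236.0 ± 28.7 in Z4 and 302.7 ± 23.5 in Z1, and at 342.7 ± 106.2 in M4 and 293.2 ± 15.9 in M1, again with no call (log2 changes -0.34 and 0.17), though without M4 1 and M4 2 its M-line change was 0.62 and was called (limma adjusted p = 0.0208).

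Other small subunit members followed in both directions. Mrps7, a head protein of bacterial type, was tight within groups and fell in the Z line, at 266.3, 278.7 and 266.7 on the Z4 arrays against 459.2, 486.8 and 478.6 on the Z1 arrays. On the M4 arrays it was at 321.4, 398.0 and 423.4, against 481.4, 479.3 and 435.8 on the M1 arrays. Z4 lay below M4, and M4 below all arrays of the remaining groups. The log2 change was -0.78 ± 0.12 in Z4 minus Z1 (limma adjusted p = 0.000254) and -0.29 ± 0.12 in M4 minus M1 (adjusted p = 0.0589). Mrps34, a mitochondria-specific protein, was at 385.8 ± 15.2 in Z4 against 620.9 ± 72.6 in Z1 and at 506.6 ± 96.1 in M4 against 702.5 ± 59.6 in M1 (log2 changes -0.66 and -0.47, limma adjusted p = 0.00339 and 0.0168). The M-line call of Mrps34 ended without M4 1 (log2 change -0.31, limma adjusted p = 0.0671) and without M4 1 and M4 2 (-0.34, adjusted p = 0.148). Mrps24 by 1438563_s_at and Mrps6, both of bacterial type, fell in the Z line by 0.94 and 0.57 on the log2 scale. Their calls in the M line ended without M4 1, without M1 1 or M1 3 and, for Mrps24, without M1 2. Without M4 1 the log2 changes were -0.30 for Mrps24 (limma adjusted p = 0.226) and -0.32 for Mrps6 (adjusted p = 0.0756). The other probe set of Mrps24, 1450865_s_at, was at -0.13 in Z4 minus Z1 and 0.20 in M4 minus M1, with no call. Mrps14, of bacterial type, was at 144.0 ± 7.2 in Z4 against 72.3 ± 6.0 in Z1 by 1420488_at (log2 change 0.86, limma adjusted p = 0.00964). The change of 0.57 by this probe set in the M line did not pass (limma adjusted p = 0.0542). The other Mrps14 probe set was at 0.14 in Z4 minus Z1 and -0.08 in M4 minus M1, with no call. Mrps12, of the decoding centre, was at 476.2 ± 111.5 in Z4 and 451.0 ± 22.6 in Z1, with no call in any comparison. Mrps36, of the 2-oxoglutarate dehydrogenase complex, had none either.

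**Figure D4:**
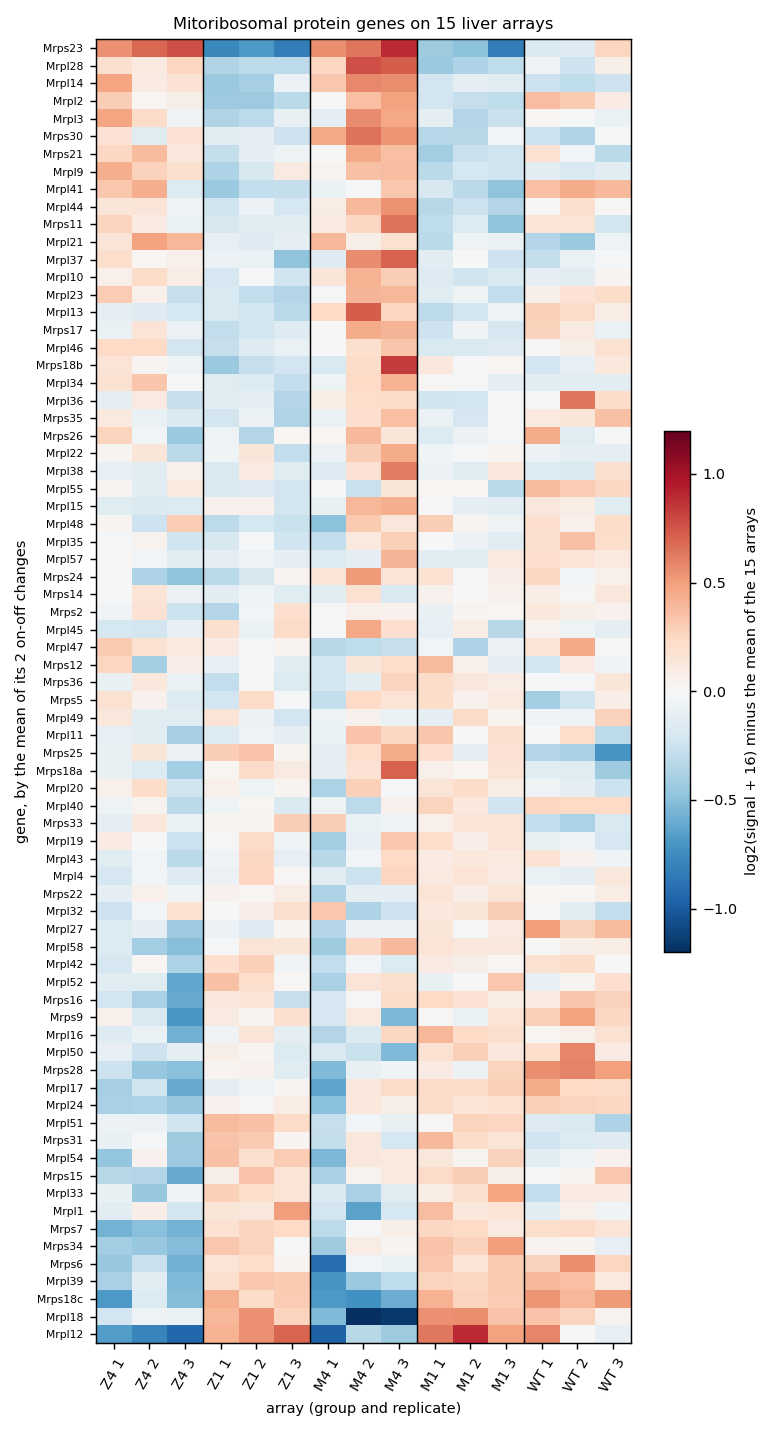
Log2(signal + 16) of the brightest probe set of each of the 74 member genes on the 15 arrays, as a difference from the gene's mean over all arrays, with genes ordered by the mean of their changes in Z4 minus Z1 and M4 minus M1. Mrps23 is at the top and Mrpl12 at the bottom, and most genes between them stay pale in all groups.

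Probe sets of one gene often disagreed. Of the 33 genes with several probe sets, 3 had opposite calls in Z4 minus Z1 (Mrpl33, Mrpl41 and Mrpl51), 14 had one called and another not, 2 had all called alike (Mrpl9 and Mrpl21) and 14 had none called. In M4 minus M1, 2 had opposite calls (Mrpl1 and Mrps23), 14 had one called and another not, 4 had all called alike (Mrpl9, Mrpl39, Mrpl50 and Mrps11) and 13 had none called. Without M4 1 and M4 2, the falls of Mrpl1 by 1450948_a_at (log2 change -0.43, limma adjusted p = 0.111, against -0.58 with all arrays) and of Mrps23 by 1421874_a_at (-0.13, adjusted p = 0.658) were not called, and the 1 gene with opposite calls in M4 minus M1 was Mrpl44. Mrpl41 fell by 1428588_a_at, as above, and rose in Z4 minus Z1 by 1428589_at, which was at 470.3 ± 100.5 in Z4 against 314.3 ± 20.3 in Z1 (log2 change 0.54 ± 0.16, limma adjusted p = 0.019). Mrps23 rose by 1421875_a_at and by 1421874_a_at was at 103.9 ± 38.4 in M4 against 156.8 ± 27.7 in M1, a called fall (log2 change -0.57 ± 0.20, limma adjusted p = 0.0344) that also ended without M4 1 alone (-0.30, adjusted p = 0.150). Mrpl51, a mitochondria-specific large subunit protein, fell by its bright probe set 1416877_a_at, at 637.9 ± 43.0 in Z4 against 874.0 ± 48.7 in Z1, and rose by the dim 1416878_at, at 47.2 ± 10.3 in Z4 against 26.2 ± 1.8 in Z1 (log2 changes -0.45 and 0.57, limma adjusted p = 0.0121 and 0.0105). Mrpl33, of bacterial type, was called lower by 1448190_at and higher by 1425843_at, which was at 33.2 ± 5.1 in Z4 against 9.9 ± 1.9 in Z1. The rise of this dim probe set ended after quantile normalization.

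**Figure D5:**
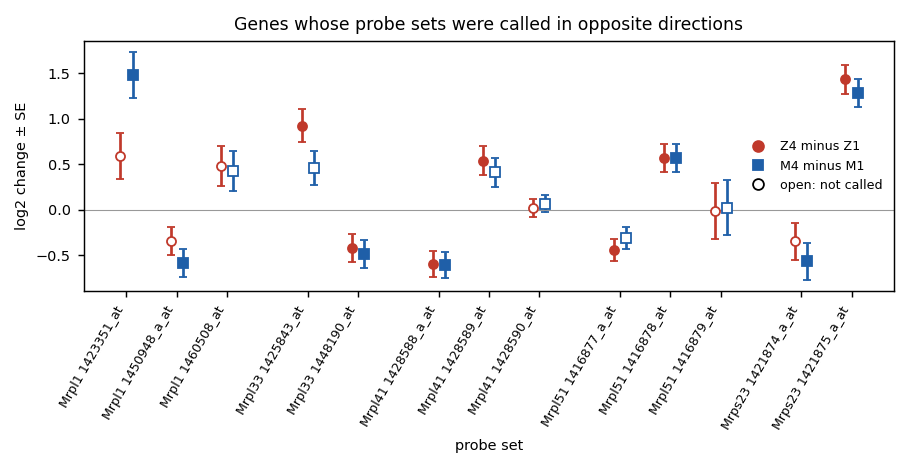
Log2 change ± SE of every probe set of the 5 genes with opposite calls, in Z4 minus Z1 (circles) and M4 minus M1 (squares), with filled symbols where limma called it. Within Mrpl1, Mrpl33, Mrpl41, Mrpl51 and Mrps23, one probe set lies above 0 and another below it.

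Mrpl17 and Mrpl57 each had a dim probe set that was called and a bright one that was not. Mrpl17, of the exit tunnel, rose by 1450867_at, at 32.7 ± 1.5 in Z4 against 15.1 ± 2.2 in Z1 and 41.5 ± 5.1 in M4 against 14.2 ± 4.4 in M1. By its bright 1450866_a_at it was at 445.5 ± 58.2 in Z4 and 576.8 ± 29.9 in Z1, with no call (log2 change -0.37). Mrpl57, mitochondria-specific, was at 45.9 ± 7.0 in Z4 against 20.8 ± 6.8 in Z1 by the called 1460225_at, and at 481.5 ± 26.6 in Z4 and 466.8 ± 9.3 in Z1 by the uncalled 1418137_at. The 22 members with a mean log2 signal under 6 had 6 higher and 0 lower calls in Z4 minus Z1 (27.3% and 0%), with a median change of 0.29. Of all 12359 probe sets that dim, 30.7% were higher and 3.28% lower, with a median of 0.29. The 57 members at 8 and over had 6 higher and 11 lower calls (10.5% and 19.3%) and a median of -0.13. Of all 3740 probe sets that bright, 13.96% were higher and 21.8% lower, with a median of -0.10. In M4 minus M1 these medians were 0.15 for the dim members, against 0.33 for all dim probe sets, and -0.07 for the bright members, against -0.11 for all bright probe sets. Members of the a_at kind, 31 in number, had a median of -0.35 in Z4 minus Z1, and the 78 of the plain kind 0.05.

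The members were set beside 2 other groups of abundant transcripts on the same arrays. In Z4 minus Z1, the 94 probe sets of cytosolic ribosomal proteins had a median of -0.29, with 7 higher and 39 lower, and the 65 of complex I subunits had -0.28, with 4 higher and 26 lower. In M4 minus M1 the medians were -0.28, with 8 higher and 37 lower, and -0.15, with 8 higher and 17 lower. Of all probe sets, 27.9% were higher and 8.14% lower in Z4 minus Z1, and 33.2% and 13.4% in M4 minus M1. Members of bacterial descent had a median of 0.04 and mitochondria-specific members -0.11 in Z4 minus Z1, and 0.10 and 0.04 in M4 minus M1. No test was made between these groups.

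Mutant and wild type protein were compared between the expressing groups. In Z4 minus M4, 2 members were called higher and 4 lower, where 3.36% of all probe sets were higher and 1.11% lower, and after quantile normalization 1 was higher and 6 lower (3.73% and 1.82%). Mrpl18 was higher in Z4, at 280.7 ± 19.1 against 151.7 ± 48.1 in M4 (log2 change 0.86 ± 0.17, limma adjusted p = 0.021, or 1.04 without M4 1 and M4 2, adjusted p = 0.00281). Mrpl47, an exit tunnel protein, was at 236.3 ± 17.6 in Z4 against 161.0 ± 3.8 in M4 (log2 change 0.51, limma adjusted p = 0.0487). Lower in Z4 were Mrpl15 by 1434971_x_at (log2 change -0.92, limma adjusted p = 0.0275), Mrpl44 by 1426651_at (-0.68, adjusted p = 0.0322), Mrpl13 (-0.57, adjusted p = 0.0363) and Mrps7 (-0.46, adjusted p = 0.0408). Mrpl15 and Mrpl13 are both large subunit proteins of bacterial type. Each of these 6 calls ended when at least 4 single arrays were left out in turn, and those of Mrpl47, Mrpl15, Mrpl44 and Mrpl13 ended without M4 1 and M4 2.

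These counts depended on M4 1. Without that array alone, 4 members were higher and 19 lower in Z4 minus M4, all 6 of the calls above among them. Calls rose across the arrays too. Over all 22626 probe sets, 2279 were then higher and 851 lower, against 760 and 252 with all arrays. The members' median in Z4 minus M4 was -0.10 with all arrays and -0.20 without M4 1, against -0.02 and -0.00 over all probe sets. Mrpl58, a peptide-release factor built into the large subunit, was called lower without M4 1 (log2 change -0.68, limma adjusted p = 0.0028) and without both arrays (-0.75, adjusted p = 0.0119), and had -0.43 with all arrays (adjusted p = 0.188). Mrps18a behaved likewise, at -0.66 without M4 1 (limma adjusted p = 0.0194), -0.93 without both (adjusted p = 0.00655) and -0.48 with all arrays (adjusted p = 0.153).

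Whether the on-off change differed between the lines was tested as (Z4 minus Z1) minus (M4 minus M1). limma called 0 members, where 0.181% of all probe sets were higher and 0.159% lower, and 12 members had an unadjusted p under 0.05. The lowest adjusted p was that of Mrpl18, whose change was 0.94 ± 0.24 log2 units less negative in the Z line (adjusted p = 0.110). Mrpl44 by 1426651_at differed by -0.76 ± 0.23 (limma adjusted p = 0.161) and Mrps7 by -0.49 ± 0.17 (adjusted p = 0.202), so with all arrays their on-off changes were not shown to differ between Z and M. Without M4 1, 2 members were called higher and 5 lower, where 1472 of all 22626 probe sets were higher and 357 lower. Among these members were Mrpl18 at 1.16 (limma adjusted p = 0.00143), Mrpl50 by 1451266_at at 1.13 (adjusted p = 0.0319) and Mrps7 at -0.60 (adjusted p = 0.0214). Without both M4 1 and M4 2, the difference was 1.12 for Mrpl18, -0.65 for Mrps7 and -0.97 for Mrps18a.

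Against WT littermates, members were called in both directions. In Z4 minus WT, 6 were higher and 13 lower, where 7.5% of all probe sets were higher and 4.79% lower, or 4 and 17 after quantile normalization (4.88% and 4.72%). In M4 minus WT, 11 were higher and 12 lower, where 13.2% were higher and 9.78% lower. Without M4 1, 25 members were higher and 11 lower, where 2872 of all 22626 probe sets were higher and 2852 lower. Without both M4 1 and M4 2, the members' median change was 0.12, against 0.007 over all probe sets. The comparisons with WT share the 3 WT arrays, so values are given side by side. Mrpl41 by 1428588_a_at changed by -1.01 in Z4 minus WT (limma adjusted p = 0.0008) and -0.90 in M4 minus WT (adjusted p = 0.000988), from WT signals of 465.3, 554.9 and 384.0. Mrps18c changed by -0.94 (limma adjusted p = 0.000872) and -1.15 (adjusted p = 0.000195), and Mrpl12 by -0.96 (adjusted p = 0.0083) and -0.74 (adjusted p = 0.019). The M4 minus WT call of Mrpl12 ended without M4 1 (-0.54, limma adjusted p = 0.0627) and without M4 1 and M4 2 (-0.59, adjusted p = 0.149). Mrpl18 was lower than WT in M4, by -1.20 (limma adjusted p = 0.000591), and in Z4 its change of -0.34 did not pass (adjusted p = 0.226). Mrpl39 was at -0.64 in Z4 (limma adjusted p = 0.0094) and -0.78 in M4 (adjusted p = 0.00199).

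Members higher than WT in the expressing groups included several of those that rose against the off groups. Mrps23 by 1421875_a_at was at 0.69 in Z4 minus WT (limma adjusted p = 0.0111) and 0.72 in M4 minus WT (adjusted p = 0.00515). Mrpl9 by 1430976_a_at was at 0.62 (limma adjusted p = 0.036), a call that ended without any 1 of 5 of the 6 arrays compared, and 0.85 (adjusted p = 0.00462). Mrpl14 was at 0.52 in Z4 minus WT (limma adjusted p = 0.0259) and 0.76 in M4 minus WT (adjusted p = 0.00212), and Mrpl21, of bacterial type, at 0.63 by 1452580_a_at in Z4 (adjusted p = 0.0114). Mrps30 was at 0.76 in M4 minus WT (limma adjusted p = 0.00239).

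The off groups, which differ from WT in the transgene and in doxycycline at once, also had members that differed from WT. In Z1 minus WT, 6 were higher and 15 lower, where 4.52% of all probe sets were higher and 16.9% lower, and in M1 minus WT, 7 were higher and 15 lower, where 4.54% were higher and 18.8% lower. After quantile normalization 4 were higher and 10 lower in Z1 minus WT (6.25% and 6.55% of all probe sets), and 5 higher and 10 lower in M1 minus WT (6.33% and 6.92%). M4 1 is used by neither comparison but enters the shared spread. Without it, 8 members were higher and 23 lower in Z1 minus WT, and 10 higher and 18 lower in M1 minus WT. Over all 22626 probe sets, 1437 were then higher and 4296 lower in Z1 minus WT, and 1371 and 4748 in M1 minus WT. Mrps28, a small subunit protein of bacterial type, was at 212.7 ± 21.1 in Z4, 281.7 ± 21.2 in Z1, 245.1 ± 45.5 in M4 and 308.2 ± 38.3 in M1, against 429.2, 439.5 and 408.9 on the WT arrays. All 12 transgenic arrays lay below the 3 WT arrays. Its log2 changes against WT were -0.95 in Z4, -0.57 in Z1, -0.77 in M4 and -0.45 in M1, with limma adjusted p = 0.00133, 0.0146, 0.00261 and 0.0389. Mrpl35, a large subunit protein of bacterial type, was the opposite by 1419362_at, with means of 24.3 in Z4, 20.9 in Z1, 26.4 in M4 and 23.8 in M1, against 4.8, 5.8 and 1.8 on the WT arrays. These signals were dim, no transgenic array was as low as WT, and the M4 minus WT call ended without M4 1 and M4 2 (log2 change 0.41, limma adjusted p = 0.371). Mrps25, mitochondria-specific, was at 127.5 ± 16.01 in Z1 and 114.5 ± 15.3 in M1, against 72.1 ± 11.5 in WT (log2 changes 0.71 and 0.57, limma adjusted p = 0.00921 and 0.0242).

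Some members of the off groups were below WT while the expressing groups were not. Mrpl11 by 1437839_x_at was at 64.2 ± 4.9 in Z1 and 70.8 ± 10.1 in M1, against 122.1 ± 10.1 in WT (log2 changes -0.78 and -0.67, limma adjusted p = 0.00117 and 0.0021), and the changes of Z4 and M4 against WT were -0.03 and 0.07. Mrps14 by 1420488_at was at 72.3 ± 6.0 in Z1 and 72.7 ± 18.5 in M1, against 146.5 ± 42.0 in WT (log2 changes -0.85 and -0.86, limma adjusted p = 0.0182 and 0.0156). These calls ended without WT 2 or WT 3, and without Z1 2 and M1 2 in their own comparisons. Mrps9, a small subunit protein of bacterial type, was at 44.8 ± 3.2 in Z1, against 91.8 ± 8.7 in WT, by 1435843_x_at (log2 change -0.83, limma adjusted p = 0.00382). No other probe set of Mrps9 was called in Z1 minus WT or M1 minus WT. The largest change against WT was that of Mrpl1 by 1423351_at in M1, at -1.70 ± 0.25 (limma adjusted p = 0.000647). By 1460508_at Mrpl1 was called below WT in Z1 and M1 (-0.99 and -1.17, limma adjusted p = 0.00634 and 0.00223). The same probe set was also called below WT in the expressing group M4 (-0.74, limma adjusted p = 0.0245). That M4 call ended without M4 2 alone (-0.65, limma adjusted p = 0.0906). Between the off groups, Mrpl1 by 1423351_at was the 1 member called in Z1 minus M1 (0.0486% of all probe sets higher, 0.0486% lower). It was at 58.4 ± 9.5 in Z1 against 10.2 ± 7.7 in M1 (log2 change 1.54, limma adjusted p = 0.0372). That call ended without any single Z1 array and without M1 2 or M1 3.

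The dimmest and brightest members bound what the arrays could show. Of the 127 members, 8 had a mean signal under 16, the added constant, in every group, and 20 in at least 1 group. The 5 dimmest were probe sets of Mrpl41, Mrpl3, Mrpl42, Mrpl19 and Mrpl15, and the 5 brightest were those of Mrpl39, Mrpl27, Mrpl12, Mrpl51 and Mrpl24. Over all comparisons, 71 members of 53 genes were called at least once and 56 never. The share of all probe sets called at least once was not counted. In M4 minus M1 alone, 33.2% of all probe sets were called higher and 13.4% lower.

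Other genes of mitochondrial translation were measured by the brightest probe set of each gene. Of 5 mitoribosomal proteins without an Mrp symbol, 4 were measured, and 1 was lower in Z4 minus Z1 and 1 in M4 minus M1. Gadd45gip1, a large subunit protein, was at 111.9 ± 30.7 in Z4 against 406.9 ± 81.6 in Z1 (log2 change -1.74 ± 0.21, limma adjusted p = 6.9e-05), and at 230.4 ± 64.9 in M4 and 231.2 ± 12.5 in M1. Against WT, at 341.0 ± 9.6, it changed by -1.51 in Z4 (limma adjusted p = 0.0008). Chchd1, of the small subunit, changed by -0.37 in M4 minus M1 (limma adjusted p = 0.00928), a call that ended without M4 1 and M4 2 (adjusted p = 0.115).

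Of 26 genes for assembly of the mitoribosome and modification of its RNA, 18 were measured, and 5 were higher and 2 lower in each of Z4 minus Z1 and M4 minus M1. Rcc1l, an assembly factor of the large subunit, was at 122.0 ± 33.7 in Z4 against 50.3 ± 12.4 in Z1 and at 158.3 ± 61.7 in M4 against 32.2 ± 8.6 in M1 (log2 changes 1.05 and 1.81, limma adjusted p = 0.00452 and 6.34e-05). Fastkd2, which binds mitochondrial ribosomal RNA, went down in both, at 75.4 ± 21.8 in Z4 against 160.4 ± 13.2 in Z1 and 69.9 ± 17.2 in M4 against 142.7 ± 6.4 in M1 (log2 changes -0.97 and -0.91, limma adjusted p = 0.00111 and 0.00118, or -0.64 in the M line without M4 1 and M4 2, adjusted p = 0.0495). Of 16 translation factors, 9 were measured, with 1 higher and 1 lower in Z4 minus Z1 and 2 higher and 1 lower in M4 minus M1. Lrpprc, which stabilises mitochondrial messenger RNA, was at 432.5 ± 23.3 in Z4 against 324.6 ± 22.9 in Z1 (log2 change 0.40, limma adjusted p = 0.0174), a call that ended without Z4 3 or Z1 1. Of 20 mitochondrial aminoacyl-tRNA synthetases and related enzymes, 11 were measured, with 4 higher and 1 lower in Z4 minus Z1 and 7 higher and 2 lower in M4 minus M1. Gatc, a subunit of the enzyme that completes glutaminyl-tRNA, was at 184.0 ± 3.65 in Z4 against 110.8 ± 11.9 in Z1 and at 251.0 ± 26.1 in M4 against 119.0 ± 12.3 in M1 (log2 changes 0.66 and 0.98, limma adjusted p = 0.00162 and 5.93e-05).

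Of 18 genes for upkeep and transcription of mitochondrial DNA, 14 were measured, with 3 higher and 2 lower in Z4 minus Z1 and 5 higher and 4 lower in M4 minus M1. Polg, the mitochondrial DNA polymerase, was at 203.3 ± 16.9 in Z4 against 131.4 ± 7.6 in Z1 and at 225.6 ± 24.6 in M4 against 110.7 ± 2.4 in M1 (log2 changes 0.57 and 0.93, limma adjusted p = 0.00209 and 4.26e-05). Of 10 transcriptional regulators of mitochondrial biogenesis, 9 were measured, with 4 higher and 0 lower in Z4 minus Z1 and 3 higher and 2 lower in M4 minus M1. Over all probe sets 27.9% were higher and 8.14% lower in Z4 minus Z1, and 33.2% higher and 13.4% lower in M4 minus M1. Without M4 1 and M4 2 the M-line rises of Ppargc1a (log2 change 0.53, limma adjusted p = 0.0746) and Ppargc1b (0.69, adjusted p = 0.0983), both transcriptional coactivators, ended, which left 1 higher and 2 lower. Nrf1, a transcription factor of nuclear genes for mitochondrial proteins, was at 80.8 ± 10.9 in Z4 against 24.1 ± 1.0 in Z1 and at 94.0 ± 5.5 in M4 against 19.6 ± 4.4 in M1, with 40.3 ± 5.1 in WT. Its log2 changes were 1.26 in Z4 minus Z1 (limma adjusted p = 2.22e-05) and 1.63 in M4 minus M1 (adjusted p = 2.14e-06), or 1.58 without M4 1 and M4 2, and both calls were kept in every alternative run. Gabpa, the DNA-binding subunit of an ETS-family factor, changed by -1.49 in M4 minus M1 (limma adjusted p = 0.00336, or -2.04 without M4 1 and M4 2), and was at 222.6 in Z4 and 240.9 in Z1 with no call. Without M4 1 and M4 2, the M4 minus M1 counts of the other lists were 4 higher and 2 lower for assembly, 2 and 0 for translation factors, 5 and 1 for the synthetases and 4 and 3 for mitochondrial DNA upkeep.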

How the data were processed

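RNA from 15 livers was measured on Affymetrix arrays, 1 per mouse. The deposited values are linear intensities, and RMA is the only tool named in the submitters' processing notes. The values lay on a linear scale with a 2% trimmed mean of 150.063 to 150.08 on every array, and no source used here says how they were scaled. Here 16 was added, log2 was taken and limma 3.58.1 in R 4.3.3 was fitted to all 22626 probe sets other than array controls, with the 5 groups sharing 1 estimate of the spread. P-values were two-sided and adjusted by Benjamini-Hochberg within each of 9 contrasts, and calls were made under 0.05. The fit was tested on simulated data. Depth does not apply to arrays, and their number limits the precision.

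Members and gene lists were chosen with earlier results of these data known. Members selected for naming were the largest called rises and falls of each contrast. These were up to 8 each way for Z4 minus Z1, M4 minus M1 and Z4 minus M4, and up to 4 elsewhere. Also selected were stalk and S18 paralog genes, Mrps12, the brightest and dimmest members and genes with opposite calls. Some of the selected rises and falls are not given above, and others named were chosen after their values were seen. Alternatives were constants of 1 and 64, quantile normalization, a filter on dim probe sets, 1 probe set per gene, a replicate block, each array left out (those outside the compared groups added after the data were seen), and M4 1 and M4 2 left out together. Gene symbols came from the platform annotation, and all 127 members matched RefSeq.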

Additional observations from a re-analysis of the deposited data

How the results depend on the processing

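No named member reversed its direction as a called result under the alternatives run, and the other members were not checked in all of them. Calls of the selected largest rises and falls were kept in 59 of 71 cases with a constant of 1 and 68 with 64. They were kept in 59 after quantile normalization and in 63 with the replicate block. After quantile normalization 10 members were higher in Z4 minus Z1, 1 in Z4 minus M4 and 0 in Z1 minus M1. With 1 probe set per gene, which tests fewer probe sets, 9 were higher in Z4 minus Z1, 17 higher in M4 minus M1, 2 lower in Z4 minus M4, 3 higher in Z4 minus WT, 0 higher in Z1 minus M1, 3 higher and 9 lower in Z1 minus WT, and 4 higher and 7 lower in M1 minus WT. With a constant of 1, 0 were higher and 0 lower in Z4 minus M4 and 3 higher in Z4 minus WT, and with 64, 7 were lower in Z4 minus M4 and 0 higher in Z1 minus M1. Replicate numbers did not pair the arrays, since deviations of same-numbered arrays correlated at -0.197 to 0.063, and with the replicate block 1 was higher and 1 lower in Z4 minus M4 and 0 higher in Z1 minus M1. Without M4 1 and M4 2 together, the members' median was 0.12 in M4 minus M1, against 0.20 over all probe sets. It was -0.25 in Z4 minus M4, against 0.01, and -0.21 in the difference between lines, against 0.003.

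With any 1 of the 15 arrays left out, higher and lower members numbered 14 to 23 and 9 to 24 in Z4 minus Z1, 20 to 35 and 8 to 20 in M4 minus M1, 0 to 4 and 0 to 19 in Z4 minus M4, 2 to 7 and 9 to 19 in Z4 minus WT, 8 to 25 and 9 to 13 in M4 minus WT, 0 to 1 and 0 to 0 in Z1 minus M1, 2 to 8 and 8 to 23 in Z1 minus WT, 3 to 10 and 8 to 18 in M1 minus WT, and 0 to 2 and 0 to 5 in the difference between lines. Leaving out arrays outside the compared groups, which share the spread, was added after the data were seen. M4 1 was such an array in Z4 minus Z1 (23 higher and 24 lower), Z1 minus WT (8 and 23) and M1 minus WT (10 and 18). It was also such an array in Z4 minus WT (7 and 19 members, against 2172 and 1371 of all 22626 probe sets). In Z4 minus M4, 1 was higher without Z1 1, Z1 2, Z1 3, M1 1, M1 2, M1 3 or WT 1, and 2 were lower without Z1 2 or M1 2. In Z1 minus M1, 0 were higher without Z4 2, WT 2 or WT 3. In Z4 minus M4, 1 was higher and 0 lower without Z4 1, none was called without Z4 2, Z4 3 or M4 2, and 0 were higher and 2 lower without M4 3. In Z4 minus WT, 3 were higher without Z4 1, Z4 2, Z4 3 or WT 2, and 2 without WT 3. In Z1 minus WT, 3 were higher without Z1 1 or Z1 3, 2 without Z1 2 or WT 3, and 8 lower without Z1 2. In M1 minus WT, 3 were higher and 8 lower without M1 3, and 4 higher and 9 lower without WT 3. The causes were not tested. Members near or under the constant of 16 have compressed changes, and probe sets of 1 gene that disagree cannot be settled from these arrays.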
